A study of Mus musculus with 4 samples.

Results

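The subunits of SWI/SNF, an ATP-dependent chromatin remodelling complex, were followed in livers of mice with a liver-specific knockout of 1 of them. The members are 30 genes, taken from a list of subunit symbols, with every probe set that the platform annotation gives to them. All 30 had a value, on 77 of the 45037 probe sets tested, and 7 were read by a single probe set. The mice were on a C57BL/6 background and were fed a high-fat diet for 10 weeks from 6 weeks of age, and liver was taken after an overnight fast. WT mice were compared with mice labelled as a liver-specific knockout of Baf60a (Baf60a LKO), where BAF60a is the product of Smarcd1. Each group had 2 arrays (Affymetrix), each with its own RNA pool, so n is 2 pools per group throughout. The Cre line behind the knockout and the number of mice per pool are not given in the sources used here. Fasting and the high-fat diet were shared by both groups.

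SWI/SNF slides or ejects nucleosomes and so opens chromatin to transcription factors. In its canonical BAF and PBAF forms it is assembled around a core of SMARCC, SMARCD, SMARCB1 and SMARCE1 proteins, with an ATPase module that holds SMARCA2 or SMARCA4. A noncanonical BAF form also exists, and the forms differ in their defining subunits. Many positions are filled by either of several paralogs, and BAF60a is known in liver as a link between the complex and nuclear receptors and coactivators of lipid and bile acid metabolism.

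Values are RMA expression levels on the log2 scale, and a difference of 1 is a doubling. Bacterial control probe sets, which have no target in mouse RNA, served as a gauge of background, and their 95th percentile lay between 3.02 and 3.42 on the 4 arrays. Hepatocyte markers were bright on all arrays, with a level of 11.77 to 14.17 over the 6 measured of 7 listed. WT replicate 1 had a narrower spread of values than the others, with an upper quartile over all tested probe sets of 6.26, against 6.44 to 6.47. Its lower quartile was 3.09, against 2.93 to 2.95. The 3-prime to 5-prime gap of beta-actin, a sign of RNA integrity, was 0.72 to 0.76 on all 4 arrays. Among the controls, 4 probe sets read the phage P1 cre gene, and on all 4 both Baf60a LKO pools lay above both WT pools. The 2 at its 3-prime end read 2.80 and 2.48 in WT and 5.87 and 6.22 in Baf60a LKO, and 3.91 and 3.45 against 5.72 and 5.80, the WT values of the latter being above background. The 2 at its 5-prime end read 3.02 on both WT arrays against 4.07 and 4.48, and 2.21 and 2.04 against 2.90 and 2.64, which is below background throughout. The cre sequence also serves as a spike-in control on these arrays, and the 6 probe sets of bioB, another spike-in, read 2.11 to 3.42 on all arrays.

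Smarcd1, the targeted gene, stood at 5.62 and 5.88 in the WT pools, against 5.34 and 5.30 in Baf60a LKO on its brighter probe set. Both knockout pools lay below both WT pools. The difference was -0.43 ± 0.14 (± is the standard error of the limma fit), a level 0.743 times that of WT with a 95% interval of -0.78 to -0.08 for the log2 difference. It did not pass over all probe sets (limma, adjusted p = 0.564), and it was -0.28 when the probe sets were averaged. The second probe set was not above background on any array. Where either probe set lies relative to the deleted part is not known here. Liver RNA also comes from cells other than hepatocytes, and in bulk tissue fewer cells of a type and less RNA per cell cannot be told apart.

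The paralogs that could take the same position in the complex, Smarcd2 (BAF60b) and Smarcd3 (BAF60c), did not pass either. Smarcd2 read 9.33 and 9.49 in WT and 9.34 and 9.55 in Baf60a LKO, with overlapping groups. Its difference of 0.03 ± 0.14 had a 95% interval of -0.32 to 0.38, and it turned to -0.04 after cyclic loess and -0.01 after quantile normalization. The other Smarcd2 probe sets differed by -0.08 and -0.21. Smarcd3 read 4.32 and 4.07 in WT and 4.0 on both Baf60a LKO arrays, a difference of -0.19 ± 0.14 with an interval of -0.54 to 0.15. Without WT replicate 1 the Smarcd3 value was -0.07, and without WT replicate 2 it was -0.32. No rise of a Smarcd paralog passed the test, and the upper ends of the intervals lie below 0.50 for both. These bounds rest on 2 pools per group. Smarcd3 was read by 1 dim probe set, with a mean of 4.1, where RMA compresses differences, so its interval may understate a rise.

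The start regions of the Smarcd family are shown because it holds the deleted gene and its paralogs, whose signals span the widest range of any family here. Each run is the 250 bases upstream of the start annotated by RefSeq (GRCm38.p6), 5′ to 3′ on the gene's strand. Capitals mark matches, on either strand, to 5 short motifs: the GC box GGGCGG, the ETS core CCGGAA, the CCAAT box (CCAAT), the TATA box TATAAA and the E-box CACGTG.
Smarcd1, chr15:99702037-99702286, plus strand: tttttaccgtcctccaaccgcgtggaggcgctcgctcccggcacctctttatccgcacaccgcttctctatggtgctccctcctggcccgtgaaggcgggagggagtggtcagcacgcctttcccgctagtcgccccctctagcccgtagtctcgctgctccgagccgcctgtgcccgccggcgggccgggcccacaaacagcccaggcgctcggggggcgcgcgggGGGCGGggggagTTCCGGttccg
Smarcd2, chr11:106267633-106267882, minus strand: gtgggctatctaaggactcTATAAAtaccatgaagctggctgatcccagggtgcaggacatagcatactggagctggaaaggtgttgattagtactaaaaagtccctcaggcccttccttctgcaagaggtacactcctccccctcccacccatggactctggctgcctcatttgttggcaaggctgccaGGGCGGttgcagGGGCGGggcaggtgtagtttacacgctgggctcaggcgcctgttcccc
Smarcd3, chr5:24602003-24602252, minus strand: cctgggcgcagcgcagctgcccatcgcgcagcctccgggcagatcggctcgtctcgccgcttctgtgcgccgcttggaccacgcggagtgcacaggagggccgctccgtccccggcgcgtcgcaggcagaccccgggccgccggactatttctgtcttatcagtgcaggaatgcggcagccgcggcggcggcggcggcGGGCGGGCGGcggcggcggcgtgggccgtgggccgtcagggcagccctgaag
The Smarcd1 and Smarcd3 windows held 29 and 38 CpG dinucleotides, and the Smarcd2 window held 4. The Smarcd2 window also held the only TATA box match among the 26 subunit windows, near its end furthest from the annotated start. Over the 26 windows of the 24 subunits in the table the median was 26.5 CpG, against 6 over all 32851 promoters. Arid1a and Brd9 have 2 windows each, and those of Brd9 largely overlap, so their matches are counted more than once. A GC box stood in 80.8% of the subunit windows and in 32.7% of all windows, an ETS core in 30.8% and 12%, and a TATA box in 3.85% and 12.4%. For the CCAAT box the shares were 19.2% and 33.8%, and for the E-box 11.5% and 6.02%. The table of all promoters includes those of noncoding genes and some genes with several starts. These letters are a description of the windows, since no binding or chromatin data belong to the series.

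Signals of most subunits lay above the background of the array. On the brightest probe set, which stands for a gene below, 26 of 30 lay above the median probe set and 29 above background on all 4 arrays. These are 86.7% and 96.7%, against 63.0% and 73.7% of all 18193 genes, and a gene with several probe sets has more chances of a bright one. The exception on background was Bcl11b, above background on 3 arrays. Of the 77 probe sets 53 were above background on all arrays (68.8%, against 61.8% of all probe sets), and 24 were not and are poorly placed to show any difference.

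**Figure D1:**
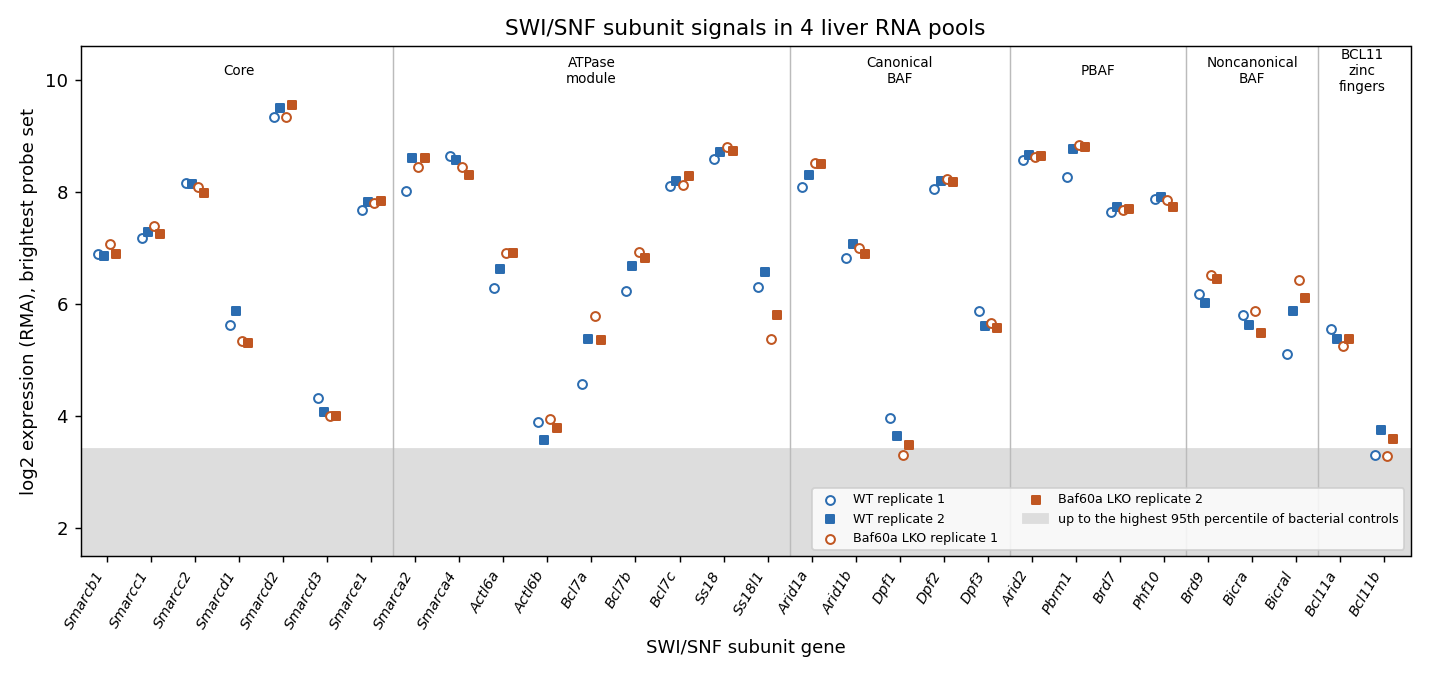
Log2 expression (vertical axis) of the brightest probe set of each of the 30 SWI/SNF subunits (horizontal axis, grouped by place in the complex) on each of the 4 arrays, with WT in blue and Baf60a LKO in orange. The shaded band reaches the highest 95th percentile of bacterial controls, 3.42; Smarcd2 is the brightest subunit, and Bcl11b and Dpf1 reach into the band.

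Within the paralog families, the order of the signals was the same on all 4 arrays in 6 of 7, and the exception was the ATPases. Probe sets differ in how well they bind their target, so this is an order of signals and not of RNA molecules. As a gauge, the 4 probe sets of Arid2 ran from 4.52 to 8.62 and the 4 of Bcl7c from 2.36 to 8.17. Only where every probe set of a paralog lies above every probe set of another does the order not depend on which is chosen, and that held for 7 of 15 pairs.

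The ATPases SMARCA2 (BRM) and SMARCA4 (BRG1), the motors of the complex, had nearly the same signal. Smarca4 stood at 8.63 and 8.56 in the WT pools, against 8.44 and 8.30 in Baf60a LKO. Smarca2 stood at 8.02 and 8.61 in the WT pools, against 8.44 and 8.61 in Baf60a LKO. Smarca4 was above Smarca2 on WT replicate 1 alone, and the mean gap of 0.06 was smaller than its standard deviation over the arrays, 0.39. The order of this pair is thus not resolved.

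Smarcd2 was the brightest of its family by a wide margin, with a mean of 9.43 over the 4 arrays, before Smarcd1 at 5.53 and Smarcd3 at 4.10. All 3 Smarcd2 probe sets, from 6.44 to 9.43, lay above those of Smarcd1 and Smarcd3. The order of Smarcd1 and Smarcd3 does depend on the probe set, since the second Smarcd1 probe set is at 2.80. Among the SMARCC scaffold proteins, Smarcc2 (8.08) lay above Smarcc1 (7.28 on its brightest of 4 probe sets), with a gap of 0.69 to 0.98 on the 4 arrays.

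The ARID subunits set the form of the complex, ARID1A and ARID1B in canonical BAF and ARID2 in PBAF. Arid2 (8.62) and Arid1a (8.35) were close, with a gap of 0.11 to 0.47, and Arid1b (6.95) was lower. Probe sets of all 3 pairs in this family interleave. The DPF proteins are histone readers of canonical BAF, and the widely expressed Dpf2 was at 8.16, before Dpf3 at 5.67 and Dpf1, a gene of neural BAF, at 3.60. Both probe sets of Dpf1 lay below those of Dpf2 and Dpf3.

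Actl6a, an actin-related protein of most cell types, lay above its neuronal counterpart Actl6b on every probe set, with means of 5.93 to 6.68 against 3.80. In the BCL7 family, accessory proteins of the ATPase module, Bcl7c (8.17) came before Bcl7b (6.66) and Bcl7a (5.27) on the brightest probe sets. The other 3 Bcl7c probe sets read 4.12 or less, below the probe set of Bcl7b, so only Bcl7b above Bcl7a held on every probe set. Bcl11a and Bcl11b, zinc finger proteins of lymphoid and neural cells, had 6 of 7 and 4 of 4 probe sets that were not above background on all arrays. The remaining Bcl11a probe set read 5.25 to 5.55, and its name ends in _x_at, which marks probes that can also bind other transcripts. Summed T cell markers were at 7.39 to 7.42 on the 4 arrays (6 measured of 7 listed, all above background). Of the neuronal markers 3 of 6 were not above background on all arrays, among them Snap25 at 1.94 to 2.05. The other 3 were above it, with Syt1 at 7.37 to 8.37, Rbfox3 at 6.14 to 6.57 and Stmn2 at 3.38 to 3.85.

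**Figure D2:**
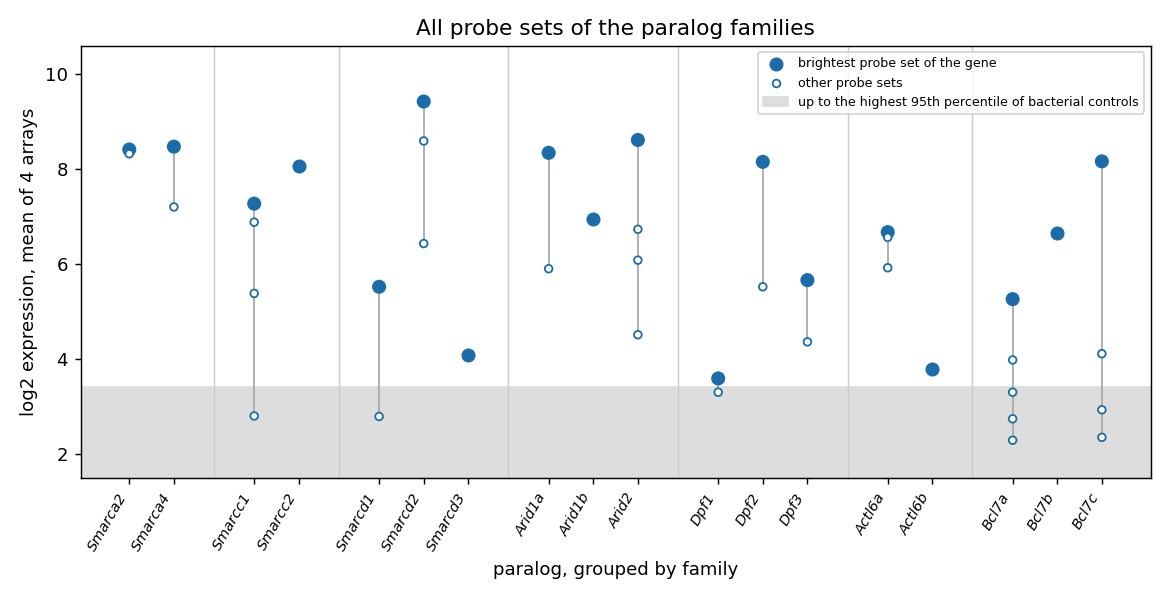
Mean log2 expression over the 4 arrays (vertical axis) of every probe set of the 18 paralogs, grouped by family (horizontal axis), with the brightest probe set filled and a line joining the probe sets of a gene. The probe sets of Smarcd2 (6.44 to 9.43) do not overlap those of its paralogs, whereas those of Arid2 (4.52 to 8.62) span the levels of Arid1a and Arid1b.

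None of the 77 subunit probe sets differed between the genotypes past the threshold of an adjusted p under 0.05 (limma, Benjamini-Hochberg over all probe sets), where 0.187% of all probe sets did, 84 in number. The lowest adjusted p was 0.388 (limma). At an unadjusted p under 0.05 (limma) there were 10 of 77, or 13.0%, against 8.17% of all probe sets. On the brightest probe sets there were 6 of 30 genes, or 20.0%, against 9.49% of all genes. These counts depended on the processing. With averaged probe sets 3 of 30 genes had such a p (limma), against 1804 of 18193. After quantile normalization it was 7 of 77 probe sets, against 3971 of 45037, and with a trended and robust eBayes 10 of 77, against 3837. No member was called in any of the 13 alternatives tried, among them the fit over genes. Those that left out an array or added a replicate block called few or no probe sets of the whole table, so they could hardly have called a member. The groups did not overlap for 34 of the 77 probe sets, 44.2%, against 39.1% of all. An exact permutation of 2 arrays against 2 cannot give a 2-sided p below 0.333, so no such test was run.

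By gene, 18 subunits were higher and 12 lower in Baf60a LKO, with a median difference of 0.042 against 0.000 over all 18193 genes. After quantile normalization of the deposited values the split was 10 higher and 20 lower, and after cyclic loess 11 and 19. The differences were small, and 27 of the 30 lay within 0.50 of 0, which is 90.0%, against 94.5% of all genes. For 27 the 95% interval also lay within 1 on either side, and the exceptions were Bcl7a, Bicral and Ss18l1.

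**Figure D3:**
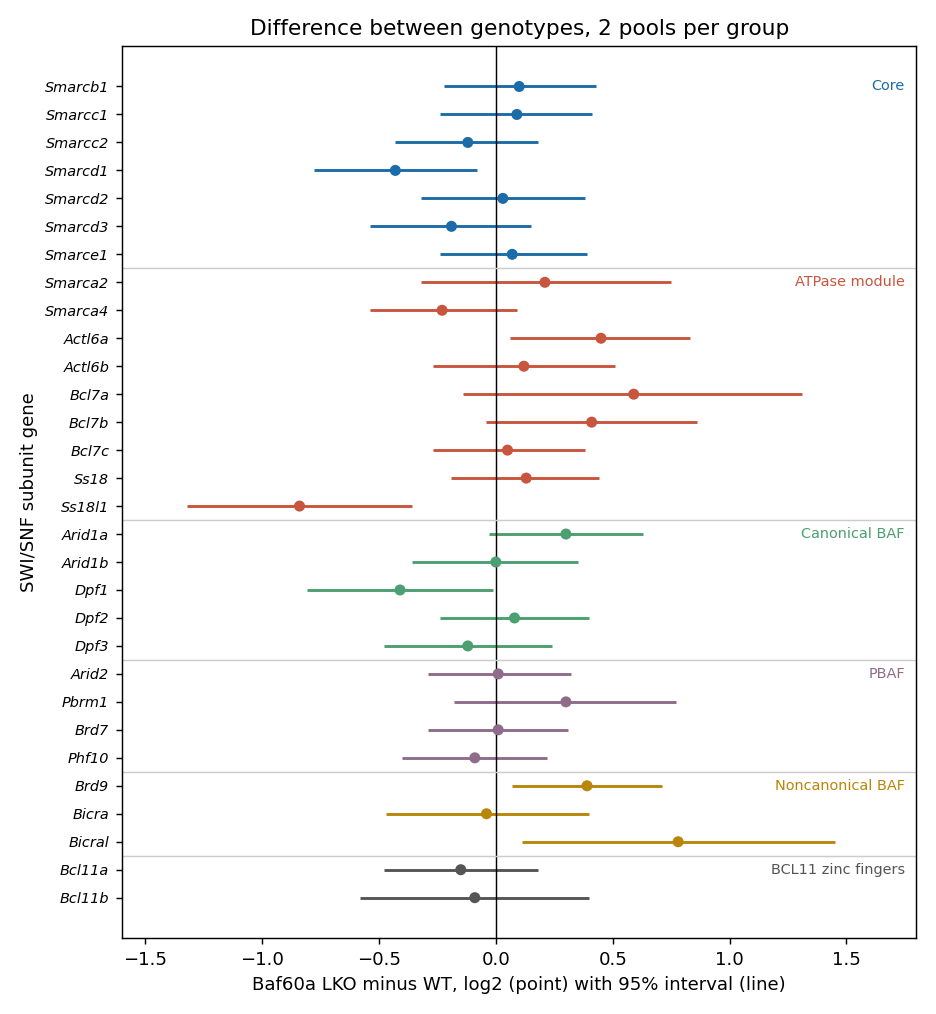
Difference of Baf60a LKO minus WT on the log2 scale (horizontal axis; point, limma estimate; line, 95% interval) for the brightest probe set of each of the 30 subunits (vertical axis), coloured by place in the complex. Ss18l1 at -0.84, Bicral at 0.78 and Bcl7a at 0.59 lie furthest from 0, and no gene passed the adjusted threshold.

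In the core, 4 of 7 genes were higher and 3 lower, with a median of 0.03 and a range of -0.43 to 0.10. After quantile normalization 0 of the 7 were higher, and without WT replicate 1 the median was -0.05 with 2 higher. Smarcd1 had the largest difference of the group. Smarcb1, the tumour suppressor SNF5, differed by 0.10 ± 0.13, Smarce1 (BAF57), a DNA-binding HMG subunit, by 0.07 ± 0.13, Smarcc1 by 0.09 ± 0.13 and Smarcc2 by -0.12 ± 0.12. Smarcc1 turned to -0.01 and Smarce1 to -0.02 under both quantile normalization and loess.

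The ATPase module held the largest differences in each direction apart from Bicral, with 7 of 9 genes higher and a median of 0.13. Without WT replicate 1 the median was 0.06 with 6 of 9 higher. Actl6a read 6.28 and 6.62 in WT and 6.90 on both Baf60a LKO arrays, a difference of 0.45 ± 0.16 (limma, adjusted p = 0.575). Both knockout pools lay above both WT pools, and without WT replicate 1 the difference was 0.28. All 3 Actl6a probe sets were higher, by 0.22 to 0.45. On the _x_at probe set of Actl6a, which differed by 0.37 ± 0.27, the groups overlapped. Bcl7b read 6.23 and 6.68 in WT and 6.92 and 6.81 in Baf60a LKO, a difference of 0.41 ± 0.18 that fell to 0.18 without WT replicate 1. Its groups did not overlap either.

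Ss18l1 (CREST), a neuronal counterpart of SS18, gave opposite answers on its 2 probe sets. The first read 6.30 and 6.56 in WT and 5.37 and 5.81 in Baf60a LKO, a difference of -0.84 ± 0.19 (limma, adjusted p = 0.388). The second read 5.86 and 5.70 in WT and 6.03 and 5.90 in Baf60a LKO, a difference of 0.18 ± 0.13. On both the groups stood apart, in opposite directions. The first is also an _x_at probe set. Ss18 itself, a subunit of canonical and noncanonical BAF, was at 8.58 and 8.70 in the WT pools, against 8.80 and 8.73 in Baf60a LKO, a difference of 0.13 ± 0.13.

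Bcl7a read 4.58 and 5.38 in WT and 5.78 and 5.36 in Baf60a LKO, with overlapping groups, and its 0.59 ± 0.29 became 0.19 without WT replicate 1 and 0.07 with averaged probe sets. Smarca4 differed by -0.23 ± 0.13 and by 0.11 ± 0.13 on its other probe set, and Smarca2 by 0.21 ± 0.22 and by -0.15 ± 0.12. Each ATPase gene thus had probe sets of opposite sign, and without WT replicate 1 the brighter Smarca2 probe set was at -0.08. Bcl7c differed by 0.05 ± 0.13 (-0.02 after quantile normalization) and Actl6b by 0.12 ± 0.16 (-0.04 without WT replicate 2).

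Of the 5 genes that define canonical BAF, 2 were higher and 3 lower, and 1 and 4 after quantile normalization. Arid1a read 8.09 and 8.30 in WT and 8.51 and 8.49 in Baf60a LKO, a difference of 0.30 ± 0.13 (limma, adjusted p = 0.627), with the groups apart. Its second probe set was higher by 0.23 ± 0.19. Arid1b had a WT mean of 6.95 and a knockout mean of 6.94, with an interval of -0.36 to 0.35 for the difference. Dpf1 read 3.96 and 3.64 in WT and 3.30 and 3.48 in Baf60a LKO, a difference of -0.41 ± 0.16 close to background (-0.25 without WT replicate 1), while its other probe set differed by 0.09 ± 0.13. Dpf2 differed by 0.08 ± 0.13 and by -0.11 ± 0.13, and Dpf3 by -0.12 ± 0.14 and -0.20 ± 0.19, each on its brighter and its other probe set.

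PBAF, the form with ARID2, showed 3 of 4 defining genes higher, with a median of 0.01. After quantile normalization or without WT replicate 1 it was 1 of 4. Pbrm1, the polybromo subunit that reads acetylated histones, stood at 8.27 and 8.77 in the WT pools, against 8.83 and 8.80 in Baf60a LKO. WT replicate 1 lay apart from the other 3 arrays. The difference was 0.30 ± 0.19 and the other Pbrm1 probe sets gave 0.37 ± 0.16 and 0.28 ± 0.17, but without WT replicate 1 the first was 0.04. Arid2 differed by 0.01 ± 0.12 and Brd7, a bromodomain subunit, by 0.01 ± 0.12, both turning negative under quantile normalization (-0.05 and -0.08). Phf10, a PHD finger subunit, differed by -0.09 ± 0.13.

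In noncanonical BAF, which is built around the bromodomain protein BRD9 and a GLTSCR1 protein (BICRA or BICRAL), the median of the 3 genes was 0.39. That median is the value of Brd9, which was read by 1 probe set, and it was 0.27 after quantile normalization. Brd9 read 6.17 and 6.01 in WT and 6.51 and 6.44 in Baf60a LKO, a difference of 0.39 ± 0.13 with a 95% interval of 0.07 to 0.71 (limma, adjusted p = 0.567). The groups stood apart and the difference was 0.31 to 0.46 with any array left out. Bicral read 5.11 and 5.87 in WT and 6.43 and 6.11 in Baf60a LKO, a difference of 0.78 ± 0.27 (limma, adjusted p = 0.575). A second probe set differed by 0.69 ± 0.23, and the remaining 2, not above background on any array, by -0.14 and -0.11. Without WT replicate 1 the value of Bicral was 0.40, and without WT replicate 2 it was 1.16. Its paralog Bicra differed by -0.04 ± 0.18, with overlapping groups. Of the Bcl11 genes, Bcl11a differed by -0.15 ± 0.13 and Bcl11b by -0.09 ± 0.20, both with overlapping groups. Without the _x_at probe set Bcl11a was at -0.34, on a probe set above background on no array.

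Agreement between probe sets of a gene can be set beside these values. Of the 17 subunits with more than 1 probe set above background, 11 had all such probe sets on the same side of 0, and 6 (Dpf2, Smarca2, Smarca4, Smarcd2, Ss18 and Ss18l1) did not. Probe sets of a gene share their array, so a pool that stands apart moves them together. On WT replicate 1, 16 of the 30 subunits had their lowest value, 53.3%, against 36.3% of all genes. Without that pool the median over the subunits was 0.002 and 15 of 30 were higher, and without WT replicate 2 it was 0.103 with 19 higher.

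**Figure D4:**
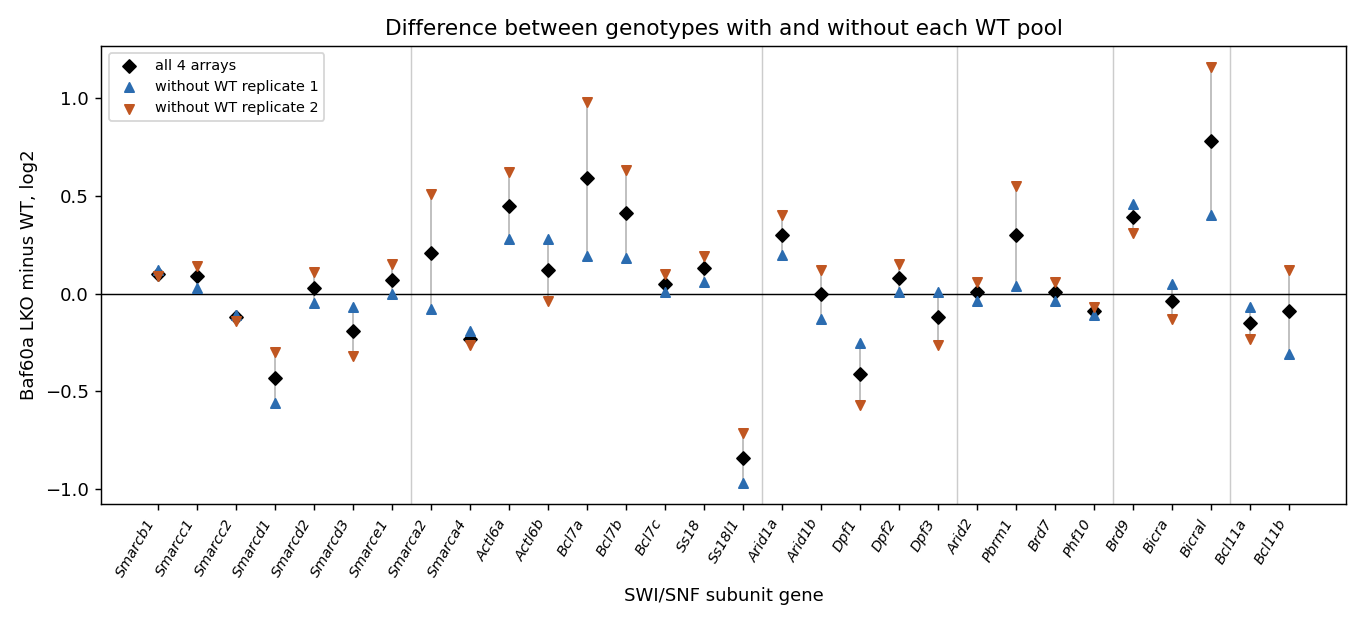
Difference of Baf60a LKO minus WT on the log2 scale (vertical axis) for the 30 subunits (horizontal axis), with all 4 arrays (black diamonds), without WT replicate 1 (blue) and without WT replicate 2 (orange). Brd9 (0.31 to 0.46) and Smarcd1 (-0.56 to -0.30) move little beside Bicral (0.40 to 1.16), Bcl7a (0.19 to 0.98) and Pbrm1 (0.04 to 0.55).

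Balance between paralogs was followed as the gap between their signals on each array. The groups did not overlap for 7 of the 15 pairs. For single genes the groups did not overlap in 42.4% of all 18193. Pairs of a family share genes and so are not independent, and those named here were picked after their values were seen. The gap of Smarcd2 over Smarcd1 was 3.72 and 3.61 in WT and 4.0 and 4.25 in Baf60a LKO, wider in both knockout pools. Most of this 0.46 is the difference of Smarcd1 itself. Arid2 stood above Arid1a by 0.47 and 0.36 in WT and by 0.11 and 0.15 in Baf60a LKO, a narrower gap. The gap of Smarcc2 over Smarcc1 was 0.98 and 0.84 in WT and 0.69 and 0.71 in Baf60a LKO. For Smarca4 over Smarca2 it was 0.62 and -0.05 in WT and 0.00 and -0.31 in Baf60a LKO, with a spread between the WT pools larger than the change. The gap of Smarcd2 over Smarcd3, 5.01 and 5.42 in WT and 5.33 and 5.55 in Baf60a LKO, overlapped too. With 2 pools per group these gaps are given without a test, and a change in a gap does not say which paralog moved.

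**Figure D5:**
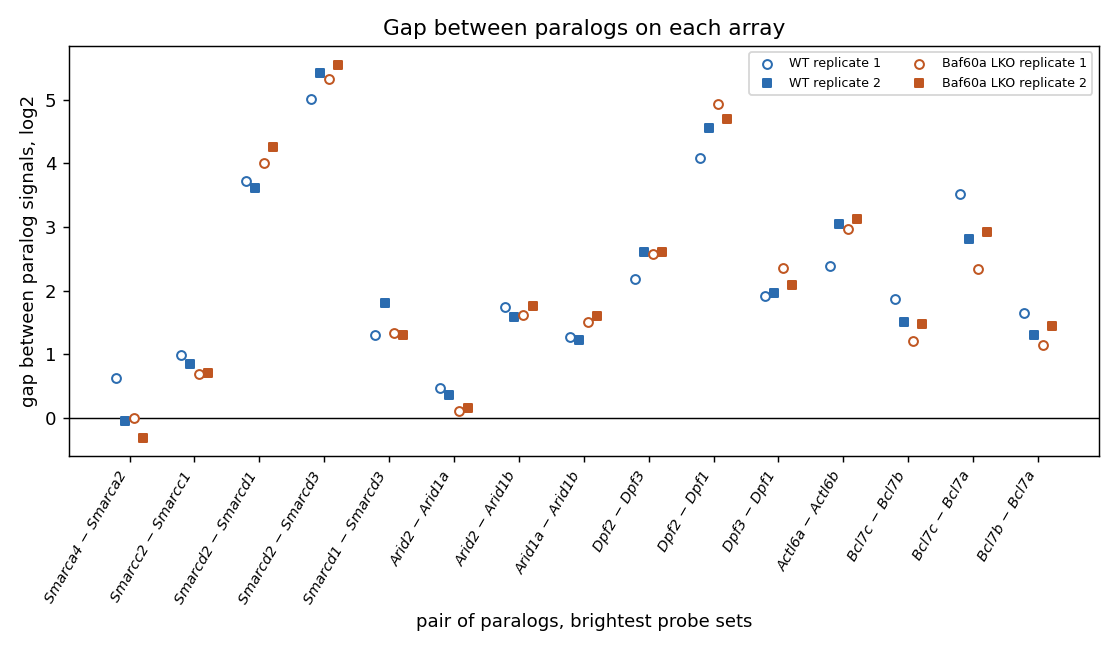
Gap between the log2 signals of 2 paralogs (vertical axis) on each of the 4 arrays for the 15 pairs within families (horizontal axis), WT in blue and Baf60a LKO in orange. The Smarcd2 to Smarcd1 gap is 3.61 to 3.72 in WT and 4.0 to 4.25 in Baf60a LKO, and the Smarca4 to Smarca2 gap lies on both sides of 0.

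Other chromatin regulators gave no calls. In the ISWI family, remodellers that space nucleosomes, 0 of 11 genes passed (limma), where 0.319% of all genes did, and 0 had an unadjusted p under 0.05. The median was 0.06, and Rsf1 (0.50 ± 0.25) and Cecr2 (-0.16 ± 0.13) lay at the ends. That median was -0.03 with 4 of 11 higher without WT replicate 1, and 0.00 after quantile normalization. Of 20 CHD and NuRD genes 0 passed and 3 had an unadjusted p under 0.05 (limma), 15.0% against 9.49% of all genes, with a median of 0.09 (0.01 after quantile normalization, 0.05 without WT replicate 1) and Chd9 (0.44 ± 0.12) and Chd6 (-0.25 ± 0.14) at the ends. Of 20 INO80 and SRCAP genes 0 passed and 0 had an unadjusted p under 0.05, with a median of 0.05 (-0.03 after quantile normalization, 0.00 without WT replicate 1) and Actr6 (0.40 ± 0.19) and Srcap (-0.23 ± 0.13) at the ends. Polycomb genes, whose silencing of chromatin SWI/SNF is known to oppose, were higher in 13 of the 15 measured with a median of 0.27, and none passed (2, or 13.3%, at an unadjusted p under 0.05, limma). Pcgf1 differed by 0.58 ± 0.25 and Cbx2 by -0.16 ± 0.13. Without WT replicate 1 the Polycomb median was 0.04 with 10 of 15 higher, and after quantile normalization it was 0.20 with 11 higher.

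Among transcription factors and coactivators known to bind BAF60 proteins, 5 of the 10 measured were higher and 5 lower. Past the adjusted threshold 1 gene was lower and 0 were higher (limma), where 0.319% of all genes passed. That gene was Nr1i3, which encodes the xenobiotic receptor CAR. It stood at 11.21 and 11.26 in the WT pools, against 6.33 and 6.58 in Baf60a LKO, a difference of -4.77 ± 0.14 (limma, adjusted p = 0.00116). With any array left out the value was -4.90 to -4.65 and did not pass (limma, adjusted p of 0.12 to 0.176), as no probe set of the table then did. This fall was known from earlier results of these data when the list was written, so it is not independent evidence about the list. Ppargc1a, the coactivator PGC-1alpha through which BAF60a is known to act on fat oxidation genes, was highest of the list at 0.31 ± 0.16 and did not pass.

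Markers of other liver cells were read beside the subunits. Cholangiocyte markers, 5 measured of 6 listed, were all higher in Baf60a LKO with groups apart, as held for 22.8% of all genes, and none passed the threshold (limma), and their summed level was 6.39 and 6.60 in WT and 7.05 and 7.42 in Baf60a LKO. This moved in the same direction as Actl6a, Brd9 and Bicral, and its part in those differences was not tested. Summed levels of Kupffer cell, endothelial and stellate cell markers (6 of 6 measured each) differed by less, at 11.74 to 11.98, 10.05 to 10.22 and 11.64 to 11.73 over the 4 arrays. Those of B cells (5 of 6 measured) were 6.50 and 6.65 in WT and 6.91 and 6.83 in Baf60a LKO, with Blnk at 4.49 and 5.12 against 5.97 and 5.78. Of the other B cell markers Cd79a (-0.14), Cd79b (-0.36) and Pax5 (-0.14) were lower and Ms4a1 differed by 0.04. Summed neuronal markers were 8.21 and 8.08 in WT and 8.79 and 8.57 in Baf60a LKO, with Syt1 at 7.37 and 7.38 against 8.37 and 8.14, while 4 of the other 5 neuronal markers were lower. Erythroid markers (2 of 4 measured) summed to 9.30 to 9.45 and muscle markers (4 of 4) to 5.66 to 6.01.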

How the data were processed

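Liver RNA pools of 2 WT and 2 Baf60a LKO groups of mice were measured on 1 array each, with the group of each taken from its label. Judged by their range, the deposited values are log2 levels, 1 per probe set and array. Per the submitters' processing notes they were made with RMA and the packages affy and limma, without versions; RMA compresses differences of dim probe sets. The arrays hold no read depth, and the number of arrays limits the precision. P-values measure the spread between pools.

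Of 45101 probe sets 64 controls were left out. Symbols came from the platform annotation (1 symbol for 34945 probe sets, several for 932, none listed for 9160) and were updated by Entrez number through RefSeq (34741 matched). All 45037 probe sets were fitted with limma 3.58.1 in R 4.3.3 (lmFit, eBayes, 2-sided, Benjamini-Hochberg, threshold 0.05), with 2 residual and 3.74 prior degrees of freedom. The brightest probe set by mean stands for a gene. A probe set is above background where it exceeds that array's 95th percentile of 41 bacterial controls. Detection calls were not analysed here.

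All listed subunits are named; of the other lists, the genes at each end and any that passed. The members and lists were chosen with earlier results of these data known. Scripts were tested on simulated data. Alternatives were quantile, cyclic loess and median normalization, the brighter 50% of probe sets, 1 probe set or the mean per gene, leaving out _x_at and _s_at probe sets, trended and robust eBayes, a replicate block and leaving out each array. Figures used matplotlib 3.10.9. Protein sequences were not used here.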

Additional observations from a re-analysis of the deposited data

How the results depend on the processing

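The count of subunit probe sets past the threshold was 0 under all 13 alternatives (limma; 1 to 20 at an unadjusted p under 0.05), and the lowest adjusted p of a subunit ran from 0.148 to 1. Smarcd1 was lower under all of them. Over all probe sets the 84 calls became 139 after quantile normalization, 162 after cyclic loess, 146 with array medians subtracted, 173 with a trended and robust eBayes, and 0 with any array left out (1196 to 10697 at an unadjusted p under 0.05, limma). An array left out leaves a group with 1 pool, assumed to vary like the other group, and fewer degrees of freedom. With the replicate number as a replicate block 4 passed. Whether same-numbered samples share more than a number is not known here. Their deviations from the group means correlated at 0.147 over probe sets. With 2 arrays per group both pairs must give the same value, so this is 1 correlation and cannot settle the question. No subunit was called with or without the block, so the block had no call among them to remove.

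Signs turned for the genes below, mostly ones with small differences, and the cause was not tested. After quantile normalization the differences were -0.05 for Arid2, -0.02 for Bcl7c, -0.08 for Brd7, -0.01 for Smarcc1, -0.01 for Smarcd2 and -0.02 for Smarce1. After cyclic loess they were -0.07 for Arid2, -0.03 for Bcl7c, -0.09 for Brd7, -0.01 for Dpf2, -0.01 for Smarcc1, -0.04 for Smarcd2 and -0.02 for Smarce1. With averaged probe sets Dpf2 was at -0.02, Smarcd2 at -0.09 and Smarce1 at -0.05. Without _x_at and _s_at probe sets Ss18l1 was at 0.18, on its other probe set. With 1 array left out, Actl6b ran from -0.04 to 0.28, Arid1b from -0.13 to 0.12, Arid2 from -0.04 to 0.06, Bcl11b from -0.31 to 0.12, Bcl7c from -0.02 to 0.13, Bicra from -0.24 to 0.16, Brd7 from -0.04 to 0.06, Dpf3 from -0.26 to 0.01, Smarca2 from -0.08 to 0.51 and Smarcd2 from -0.08 to 0.14. Paralog order was the same on all arrays in 6 of 7 families, and in 5 with averaged probe sets. The 24 subunit probe sets near background can show little of any difference.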
